A study of Mus musculus with 6 samples.

Results

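Neuregulin and ErbB signalling was followed through 7 genes in mouse hearts at embryonic day 12.5 (E12.5), out of 19933 genes that a single annotated symbol named on the array. The 7 genes were taken by name, with earlier results of these data known. They were the ligand genes Nrg1 and Hbegf, the receptor genes Egfr, Erbb2, Erbb3 and Erbb4, and Errfi1, which encodes an inhibitor of these receptors. All 7 were measured, each by 1 transcript cluster, the set of probes that reads a gene along its transcript. The hearts were 3 labelled wild type and 3 labelled knockout for β1 integrin, the shared β chain of most receptors for collagen, laminin and fibronectin. RNA of each was read on an Affymetrix Mouse Gene 1.0 ST array. The labels give no strain and do not say in which cells Itgb1 was deleted, whether hearts were pooled, or what further alleles the wild-type hearts carried. The samples are biological replicates by the design text, and the p-values rest on the spread between them.

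Neuregulin 1 is made by the endocardium, the inner lining of the heart, and acts across the cardiac jelly on the ErbB2 and ErbB4 receptors of the neighbouring muscle cells. Mouse embryos without neuregulin 1, ErbB2 or ErbB4 form no proper trabeculae, the muscle ridges that grow into the ventricle, and die at mid-gestation. ErbB2 binds no ligand and works as the partner of the other receptors, while ErbB3 binds neuregulin but has little kinase activity and serves in the mesenchyme of the cushions and in glia. HB-EGF binds the EGF receptor and ErbB4, and loss of HB-EGF or of EGF receptor function thickens the heart valves. The comparison asked whether the transcripts of this pathway differed between knockout and wild-type hearts at a stage when trabeculae form and, per the design text, before the mutants show overt dysfunction.

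The 2 genes with the largest differences were Errfi1 and Egfr, an inhibitor and a receptor. Both had higher means in the knockout, by 0.60 ± 0.24 (log2, SE) and 0.46 ± 0.18. The trabeculation ligand Nrg1 and the receptors Erbb2, Erbb3 and Erbb4 differed by 0.14 or less in either direction. No difference passed the test over all clusters (limma, Benjamini-Hochberg adjusted p from 0.797 to 0.977 for the 7 genes). The means of 6 of the 7 genes were higher and that of 1, Nrg1, was lower in the knockout, where 44% of all named genes had a higher and 55.8% a lower mean. For 2 of the 7, Erbb4 and Errfi1, all knockout hearts lay above all wild-type hearts, as they did for 6.01% of all clusters. The median difference of the 7 was 0.11, against -0.02 over all named genes, and 0.07 without knockout replicate 1.

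Over the whole array, 0 of 28767 clusters passed limma's test (0%), and 1705 had an unadjusted p under 0.05 (5.93%). Array medians lay between 6.65 and 6.70, and the number of arrays limits the precision. The targeted gene Itgb1 was 11.76, 11.80 and 11.78 in the wild-type and 11.53, 11.42 and 11.65 in the knockout hearts (two-sided exact permutation p = 0.1). The knockout hearts thus held 84.0% of the wild-type signal. The probe positions and the deleted part are not given, so this value does not settle the labels. Cardiomyocyte markers stood at a mean log2 signal of 12.56 to 12.60 in the wild-type hearts and 12.41 to 12.55 in the knockout hearts, far above the array medians. Knockout replicate 1 stood apart: its values deviated from their group mean with an SD of 0.193 over the named genes, against 0.117 to 0.170 in the other 5 hearts. In it the mean of 12 low-oxygen response genes lay 1.75 above the wild-type mean, that of 9 erythroid markers 1.10 and that of 6 megakaryocyte markers 2.11. For many results the value without it is given as well. In a whole heart, fewer cells of a type and less RNA per cell cannot be told apart.

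Nrg1 signal was 6.75, 6.76 and 6.88 in wild-type replicates 1 to 3 and 6.64, 6.64 and 6.81 in knockout replicates 1 to 3. That level was near the array medians of 6.65 to 6.70 and above 46.5% of named genes, and the array processing compresses differences of dim clusters. Knockout replicates 1 and 2 were the lowest of the 6 hearts, but replicate 3 lay above 2 of the wild-type hearts, so the groups overlapped. The difference was -0.10 ± 0.09 (log2, SE; limma, adjusted p = 0.847; unadjusted p = 0.305), or 93.4% of the wild-type signal. The 95% interval of the fold ran from 0.808 to 1.08, so 3 arrays per group did not tell the Nrg1 value apart from equal signal. With 1 heart left out the difference ran from -0.15 to -0.06, and it was -0.07 without knockout replicate 1. The sign held in all 15 alternative fits, but those that changed only the filter, the cluster choice, the block or the variance could not move it.

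Markers of the endocardium and endothelium, the tissue that makes neuregulin 1, had lower means by about the same amount. Of 12 markers 9 had a lower mean in the knockout and 3 a higher one, with a median difference of -0.11, and of -0.07 without knockout replicate 1. Their mean signal was 9.45 to 9.55 in the wild-type hearts and 9.39 to 9.41 in the knockout hearts, without overlap. Among the first markers of the list, Pecam1 differed by 0.08, Cdh5 by -0.08 and Tek by -0.22, and without that heart by -0.02, -0.03 and -0.11. Taken relative to the mean of these markers within each heart, Nrg1 differed between the groups by 0.001, and by 0.03 without knockout replicate 1. Relative to the cardiomyocyte marker mean it differed as little, by -0.008, and by -0.02 without that heart. Against the epicardial and cushion marker means it differed by -0.155 without overlap and by -0.36 with overlap. Nrg1 and the endocardial list parted in knockout replicate 3, where the list lay 0.09 below the wild-type mean and Nrg1 0.01 above it. The part of the endocardial and endothelial markers in the Nrg1 value was not tested.

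Hbegf, the other ligand gene, was 8.21, 8.16 and 8.14 in the wild-type hearts and 8.36, 8.20 and 8.28 in the knockout hearts. Knockout replicate 2 lay 0.004 below the highest wild-type heart, and the other 2 knockout hearts lay above all wild-type hearts. The difference was 0.11 ± 0.08 (log2, SE; limma, adjusted p = 0.826; unadjusted p = 0.231), with a 95% interval of 0.943 to 1.23 for the fold. Without knockout replicate 1 it was 0.07. Relative to the endocardial and endothelial marker mean, Hbegf was higher by 0.21, with no overlap between the groups, and by 0.16 without knockout replicate 1. Relative to the cardiomyocyte marker mean it was higher by 0.20, also without overlap. Against the epicardial and cushion marker means it differed by 0.05 and -0.15, with overlap. Such a ratio does not show which of the 2 quantities changed. The ligands Nrg1 and Hbegf thus had differences of opposite sign, and the 95% interval of each included equal signal in the groups.

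**Figure D1:**
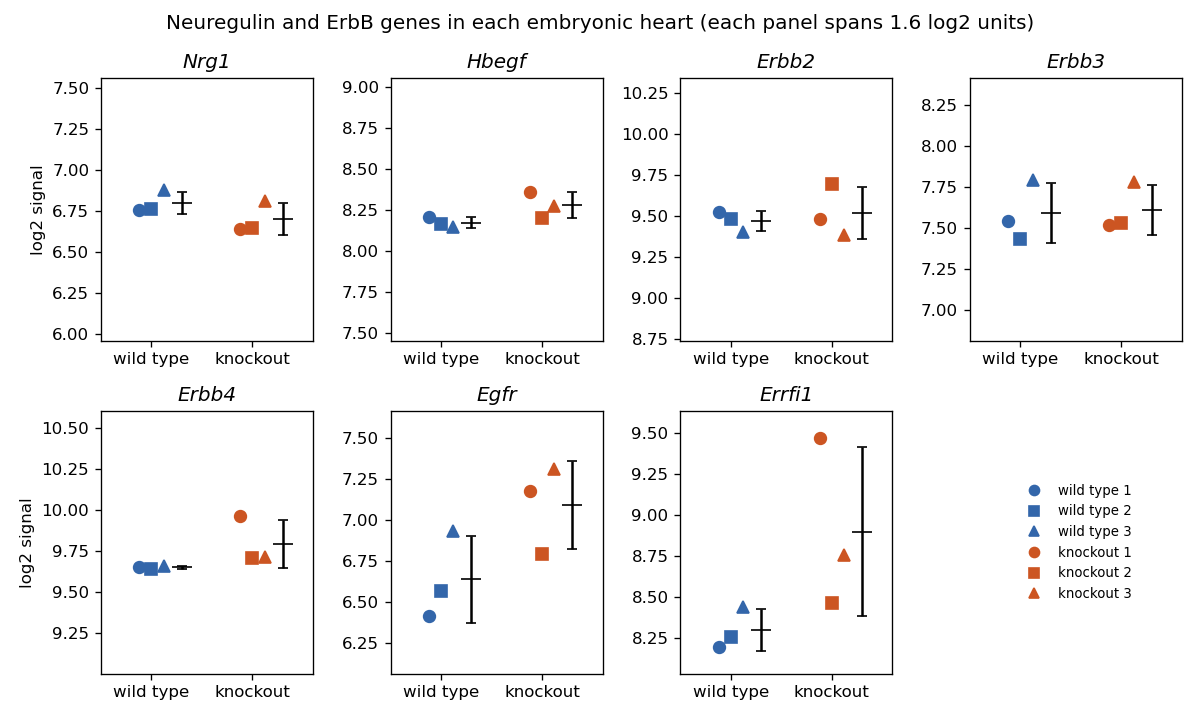
Deposited log2 signal of the 7 genes in each of the 6 hearts (points, 3 wild type and 3 knockout), with the mean and SD of each group as a bar (n = 3); every panel spans 1.6 log2 units. Errfi1 reached 9.47 in knockout replicate 1, the 3 wild-type hearts of Erbb4 lay within 9.64 to 9.66, and only Erbb4 and Errfi1 have groups that do not overlap.

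Erbb4, the neuregulin receptor of the ventricular muscle, gave the tightest wild-type values of the 7 genes, at 9.66, 9.64 and 9.66. The knockout hearts stood at 9.96, 9.71 and 9.72, all above every wild-type heart. The lowest knockout value lay 0.05 above the highest wild-type value, and knockout replicates 1, 2 and 3 exceeded the mean of the wild-type hearts by 0.31, 0.05 and 0.06. The difference was 0.14 ± 0.10 (log2, SE; limma, adjusted p = 0.801; unadjusted p = 0.180), with an exact permutation p of 0.1, the smallest that 3 against 3 can give. Without knockout replicate 1 it was 0.06.

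The muscle cell markers differed in the other direction. Of 14 cardiomyocyte markers 12 had a lower mean in the knockout, with a median difference of -0.09, and of -0.05 without knockout replicate 1. Tnnt2, Tnni1 and Tnni3 differed by -0.07, -0.15 and -0.16, and without that heart by -0.03, -0.08 and -0.09. Relative to the mean of these markers in the same heart, Erbb4 was higher by 0.23, with the groups again apart, and by 0.11 without knockout replicate 1. Relative to the endocardial and endothelial marker mean it was higher by 0.24, also without overlap, and by 0.15 without that heart. Against the epicardial and cushion marker means it differed by 0.09 and -0.12, with overlap. A ratio of this kind shows unequal differences and not which of the 2 quantities changed.

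Erbb2, the partner of ErbB4 without a ligand of its own, was 9.52, 9.48 and 9.41 in the wild-type hearts and 9.48, 9.70 and 9.38 in the knockout hearts. Knockout replicate 2 was the highest and knockout replicate 3 the lowest of the 6, so the knockout group enclosed the wild-type group. The difference was 0.05 ± 0.10 (log2, SE; limma, adjusted p = 0.932; unadjusted p = 0.644) and became -0.04 without knockout replicate 2. The 95% interval of the fold was 0.876 to 1.22.

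Erbb3, the neuregulin receptor of cushion mesenchyme and glia, was 7.54, 7.44 and 7.79 in the wild-type hearts and 7.52, 7.53 and 7.78 in the knockout hearts. Replicate 3 of each group was high by nearly the same amount, and the other 4 hearts lay within 7.44 to 7.54. The difference was 0.02 ± 0.12 (log2, SE; limma, adjusted p = 0.977; unadjusted p = 0.876), with a 95% interval of 0.830 to 1.24 for the fold. Its sign turned in 3 of the fits with 1 heart left out. Without knockout replicate 1 it was 0.07.

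The same 2 hearts were high in cushion mesenchyme markers. The mean of these 12 markers was 7.87, 7.55 and 8.64 in the wild-type hearts and, in knockout replicates 1 to 3, 7.99, 8.10 and 8.75. For Sox9, a cushion transcription factor, wild-type replicate 3 stood at 8.67 and knockout replicate 3 at 9.10, against 7.48 to 7.91 in the other 4. Wild-type replicate 2 was the lowest heart for Erbb3 and for the cushion list. Of the 12 cushion markers 10 had a higher mean in the knockout, with a median difference of 0.21 that ran from 0.02 without knockout replicate 3 to 0.48 without wild-type replicate 3. The markers of neural crest glia and neurons, a further source of Erbb3, were dim: 8 of 11 were measured, with a mean of 5.85 to 5.97 in the wild-type hearts and 5.87 to 5.97 in the knockout hearts and Sox10 between 6.51 and 6.75. The part of the cushion markers in the Erbb3 values was not tested.

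Egfr, the receptor for HB-EGF and the other EGF-like ligands, was 6.42, 6.57 and 6.93 in the wild-type hearts and 7.18, 6.79 and 7.31 in the knockout hearts. Like Nrg1 it stood near the middle of the array, above 48.1% of named genes. Knockout replicates 1 and 3 lay above all wild-type hearts, and knockout replicate 2 lay below wild-type replicate 3. The group means were 6.64 ± 0.27 (SD, n = 3) and 7.09 ± 0.27 (SD, n = 3). The knockout signal was 1.37-fold the wild-type signal, with a 95% interval of 1.03 to 1.82 (limma, adjusted p = 0.797; unadjusted p = 0.0327). An exact permutation test (two-sided) gave p = 0.2. The unadjusted p was 0.111 with wild-type replicate 1 left out and 0.0862 with wild-type replicate 2 left out. It was 0.0853 and 0.107 with knockout replicates 1 and 3 left out and 0.0793 with arrays weighted by quality. Lower values came with wild-type replicate 3 left out (0.0101), knockout replicate 2 left out (0.00921) and replicate number as a block (0.0128). The lowest adjusted p of the alternative fits was 0.4426. The difference of Egfr was 0.34 to 0.61 with 1 heart left out and 0.31 with arrays weighted by quality. With 2 of 7 genes, Egfr and Errfi1, at an unadjusted p under 0.05 and a higher mean, the share of all clusters in that class was 3.06%.

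Within each group, the hearts highest in Egfr were replicate 3, as for the cushion markers. Knockout replicate 1 was an exception, with Egfr 0.54 above the wild-type mean and the cushion mean 0.03 below it. Relative to the cushion mean Egfr was higher by 0.20 in the knockout, with overlap, and by 0.01 without knockout replicate 1. Relative to the mean of liver and foregut markers it differed by 0.008, with overlap, and by -0.11 without that heart. Against the endocardial, cardiomyocyte and epicardial marker means Egfr was higher by 0.56, 0.55 and 0.40, each with overlap. The mean of the liver and foregut list was higher in every knockout heart, as were those of the low-oxygen and megakaryocyte lists. Of 9 liver and foregut markers 8 had a higher mean, with a median difference of 0.19. The mean of that list was 5.41 to 5.68 in the wild-type hearts and 5.81 to 6.12 in the knockout hearts. In that list Afp and Alb, defining products of the fetal liver, differed by 1.20 ± 0.30 and 1.57 ± 0.34 (log2, SE), and the apolipoprotein gene Apoa1 by 0.19 ± 0.09. Epicardial markers differed by a median of 0.09, with 6 of 9 higher, and without knockout replicate 1 by 0.04, with 5 higher. The part of these cell types in the Egfr value was not tested.

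Errfi1 encodes MIG6, which binds the kinase domain of the EGF receptor family, blocks it and sends the receptor to be degraded. The gene is itself switched on by receptor activity and by stress signals. Its signal was 8.19, 8.26 and 8.44 in the wild-type hearts and 9.47, 8.47 and 8.76 in the knockout hearts. All knockout hearts lay above all wild-type hearts, with a gap of 0.03 between knockout replicate 2 and wild-type replicate 3. Knockout replicate 1 lay 1.18 above the wild-type mean, replicate 2 0.17 and replicate 3 0.46. The group means were 8.30 ± 0.13 (SD, n = 3) and 8.90 ± 0.52 (SD, n = 3), a 1.52-fold difference with a 95% interval of 1.04 to 2.22 (limma, adjusted p = 0.797; unadjusted p = 0.0353; two-sided exact permutation p = 0.1). Without knockout replicate 1 the difference was 0.32 (unadjusted p = 0.0425), and it was 0.32 (unadjusted p = 0.0921) with arrays weighted by quality. Leaving out wild-type replicate 1 gave an unadjusted p of 0.0917, and leaving out wild-type replicate 2 gave 0.0801. It was 0.0486 without wild-type replicate 3, 0.0477 without knockout replicate 3 and 0.00727 without knockout replicate 2. The lowest adjusted p of the alternative fits was 0.4605.

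Low-oxygen response genes had their highest values in the same heart. All 12 had a higher mean in the knockout, 7 of them without overlap, where 6.01% of all clusters were higher without overlap. The median difference was 0.68, and without knockout replicate 1 it was 0.26, with 11 higher. The mean of the list was 8.51 to 8.57 in the wild-type hearts and, in knockout replicates 1 to 3, 10.29, 8.93 and 8.74. Egln3, an oxygen-sensing hydroxylase, was 7.48, 7.13 and 7.40 in the wild-type hearts and 9.86, 8.22 and 7.88 in the knockout hearts. In the list knockout replicate 2 lay above replicate 3, while for Errfi1 replicate 3 lay above replicate 2. Relative to the mean of this list, Errfi1 differed by -0.18, with overlap, and by 0.02 without knockout replicate 1. Against the liver and foregut, megakaryocyte and erythroid marker means it differed by 0.15, -0.20 and 0.28, also with overlap. Without that heart these values were -0.21, 0.16 and 0.38. Against the endocardial and cardiomyocyte marker means Errfi1 was higher by 0.70 and 0.69, without overlap. The part of the low-oxygen genes in the Errfi1 value was not tested.

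**Figure D2:**
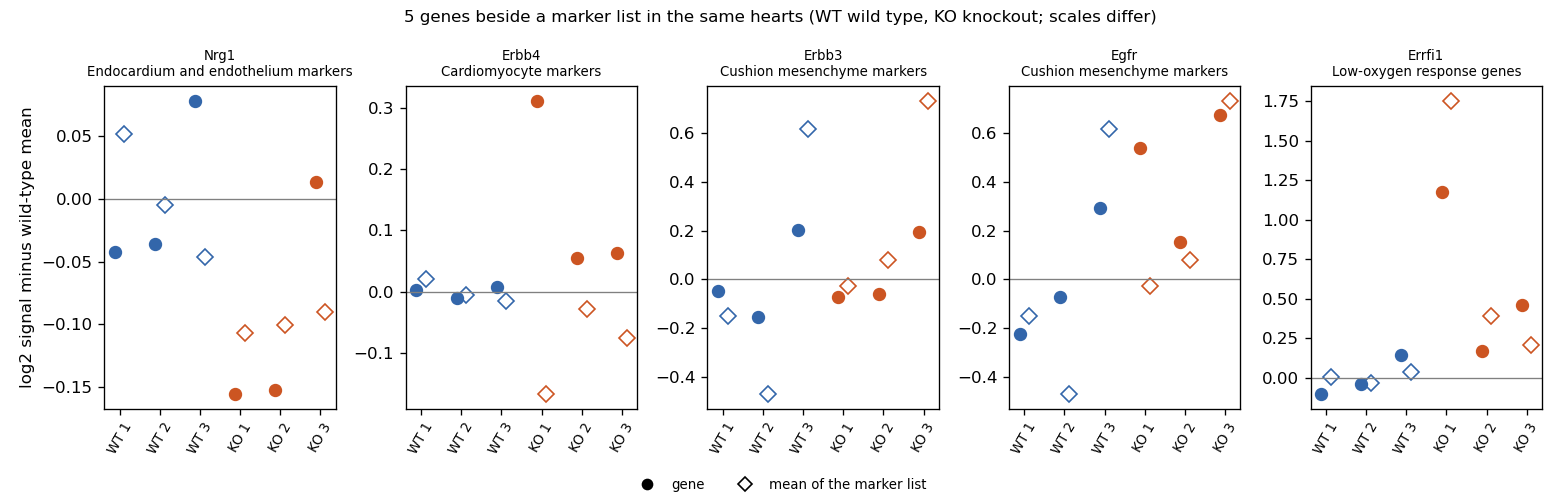
Log2 signal minus the wild-type mean in each heart, for 5 genes (filled circles) and for the mean of a marker list (open diamonds); the scales differ between panels, and the pairs were chosen after the values were seen. The endocardial list is low in all 3 knockout hearts and Nrg1 in replicates 1 and 2 but not 3, Erbb3 and the cushion list are high in replicate 3 of each group, and Errfi1 (1.18) and the low-oxygen list (1.75) are highest in knockout replicate 1.

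Sequences before the transcription start are shown for the 2 genes whose groups did not overlap, Errfi1 and Erbb4, and for Egfr, whose difference was the second largest. The RefSeq promoter table (build GRCm38.p6) matched 4 of the 7 genes, with 5 windows: Erbb2, Erbb4, Egfr and, at 2 start sites, Errfi1. Nrg1, Hbegf and Erbb3 had no entry used here. Each sequence is the 250 bases before an annotated start, 5′ to 3′ on the strand of the gene. Capitals mark a match on either strand to 4 motifs, which were chosen after the values were seen. The cyclic AMP response element was searched as TGACGTCA. The core of the low-oxygen response element was searched as ACGTG. The TATA box was searched as TATAAA, and the GC box, which Sp1 binds, as GGGCGG. For Errfi1 the window of its downstream start site is at chr4:150854820-150855069 (plus strand), for Erbb4 at chr1:69108060-69108309 (minus strand) and for Egfr at chr11:16751953-16752202 (plus strand).
Errfi1: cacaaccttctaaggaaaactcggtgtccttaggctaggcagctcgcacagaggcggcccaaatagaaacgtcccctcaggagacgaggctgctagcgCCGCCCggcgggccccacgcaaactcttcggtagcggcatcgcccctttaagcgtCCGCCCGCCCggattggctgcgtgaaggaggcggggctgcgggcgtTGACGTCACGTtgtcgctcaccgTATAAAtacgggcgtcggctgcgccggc
Erbb4: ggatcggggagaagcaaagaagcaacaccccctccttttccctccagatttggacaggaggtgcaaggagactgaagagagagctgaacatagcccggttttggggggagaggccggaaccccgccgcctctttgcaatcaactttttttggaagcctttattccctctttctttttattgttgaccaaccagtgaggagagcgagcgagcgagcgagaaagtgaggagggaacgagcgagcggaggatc
Egfr: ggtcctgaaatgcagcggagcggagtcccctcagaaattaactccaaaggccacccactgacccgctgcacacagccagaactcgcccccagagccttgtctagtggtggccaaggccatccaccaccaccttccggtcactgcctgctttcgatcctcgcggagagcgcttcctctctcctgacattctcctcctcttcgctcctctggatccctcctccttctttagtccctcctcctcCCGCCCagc

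The Errfi1 window held 1 match to TGACGTCA, starting 51 bases before the start site, and 1 to ACGTG, 45 bases before it and overlapping the first. It also held TATAAA 28 bases before the start and 3 matches to GGGCGG, 2 of which overlap. Of all 32851 windows of this length in the table, 1.55% held TGACGTCA, 16.6% ACGTG, 12.4% TATAAA and 32.7% GGGCGG. The Egfr window held 1 GGGCGG match, 9 bases before the start, and none of the other motifs. The Erbb4 and Erbb2 windows and the upstream Errfi1 window held none of the 4. These matches describe letters and not binding, and G and C made up 64.8% of the Errfi1 window, 60.8% of the Egfr window and 54.0% of the Erbb4 window, against a median of 52.4% over all windows.

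**Figure D3:**
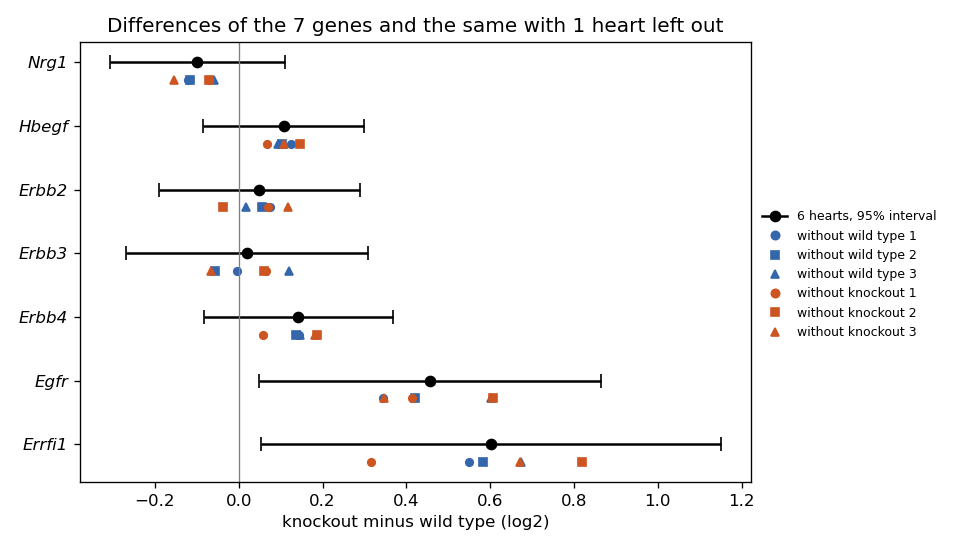
Knockout minus wild-type difference (log2) of the 7 genes: black points with the 95% interval of limma's fit to 6 hearts, and below each the value with 1 heart left out, coloured by the group of that heart. The intervals of Egfr and Errfi1 lie above 0 before adjustment over all clusters, Errfi1 drops to 0.32 without knockout replicate 1, and Erbb2 and Erbb3 turn their sign.

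The genes whose pattern was most like that of each member were taken by the smallest root mean square difference of mean-centred log2 values over the 6 hearts, among genes at or above the median level. For Errfi1 these were Plod2, a collagen lysyl hydroxylase (0.05), and Ndufa4l2, a mitochondrial protein gene (0.08), where Errfi1 itself varied with an SD of 0.47 over the hearts. Plod2 was 9.52, 9.66 and 9.74 in the wild-type hearts and 10.90, 9.81 and 10.09 in the knockout hearts, the same order of hearts as Errfi1. For Egfr they were Rai14, which encodes an actin-binding protein (0.06), and Specc1 (0.09), higher by 0.43 each. For Erbb4 they were the seryl-tRNA synthetase gene Sars (0.01) and Map2k1 (0.01), the kinase MEK1 that the receptors activate through Ras. For Hbegf they were Pabpc1 (0.01) and Ttc33 (0.02), for Nrg1 Ddah2 (0.02) and Ier2 (0.02), for Erbb2 Ube2cbp and Pde2a (0.03 each) and for Erbb3 P4ha3 (0.04) and Znrf1 (0.04). The matches were sought among many genes over only 6 hearts and serve as a description. Among the pathway genes described next, the closest were Egr1 for Errfi1 (0.15), Numbl for Egfr (0.17), Shc1 for Hbegf (0.03), Grb2 for Erbb2 (0.08) and Notch1 for Erbb3 (0.06).

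The remaining EGF-family ligands had a mean log2 signal of 5.84 to 5.94 over the hearts, below the array medians, and none had an unadjusted p under 0.05. Of 8 measured, 5 had a higher and 3 a lower mean, with a median of 0.05. That median ran from 0.01 without knockout replicate 2 to 0.06 without knockout replicate 3, and it was 0.001 after dim clusters were removed. Leaving out knockout replicate 1 gave 0.02, and leaving out replicate 1 of the wild type gave 0.01. Egf was 6.12, 6.19 and 6.22 in the wild-type hearts and 5.98, 6.10 and 5.97 in the knockout hearts, a difference of -0.16 ± 0.08 (log2, SE), and Nrg4, a neuregulin that acts on ErbB4, differed by -0.09 ± 0.08. These 2 were lower in every knockout heart, as were 6.61% of all clusters. Ereg and Epgn, ligands of the EGF receptor, differed by 0.18 ± 0.12 and 0.15 ± 0.12, and without knockout replicate 1 by 0.28 and 0.24.

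Shedding frees the ligands from the membrane. Of 11 genes of shedding and processing 7 had a higher and 4 a lower mean, with a median of 0.02 and no gene apart between the groups. The median was 0.06 without knockout replicate 1 and -0.03 without knockout replicate 3. Adam12, a protease that releases HB-EGF, was 7.25, 6.99 and 7.35 in the wild-type hearts and 7.70, 7.29 and 7.46 in the knockout hearts. Its difference of 0.29 ± 0.14 (log2, SE) was 0.18 without knockout replicate 1. Rhbdf2, a partner of the sheddase ADAM17, stood at 0.28 ± 0.21, of which 0.02 was left without that heart, while Bace2 stood at -0.21 ± 0.15, and at -0.05 without it. Adam19, a protease of the cushions, stood at 0.14 ± 0.17. Adam17 itself, named after its value was seen, differed by 0.01, and by 0.06 without knockout replicate 1.

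The adaptors and kinases that carry the signal inside the cell showed no common direction. Of 31 measured, 13 had a higher and 18 a lower mean, with a median of -0.02 (-0.03 to 0.01 by the heart left out), and no gene had an unadjusted p under 0.05. Grb7, an adaptor that binds ErbB2, was 6.18, 6.31 and 6.23 in the wild-type hearts and 6.04, 6.18 and 6.02 in the knockout hearts, a difference of -0.16 ± 0.09 (log2, SE). The 2 MEK genes went opposite ways, Map2k1 by 0.16 ± 0.10 and Map2k2 by -0.15 ± 0.10, and without knockout replicate 1 by 0.08 and -0.08. Pik3r3, a regulatory subunit of the phosphoinositide 3-kinase, stood at -0.50 ± 0.30, and at -0.11 without knockout replicate 1.

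Feedback inhibitors of the receptors and of ERK, the group that Errfi1 belongs to by function, had a higher mean in 16 of 19 genes and a lower one in 3, with a median of 0.08. Without knockout replicate 1 the counts were 13 and 6 and the median 0.04, and without wild-type replicate 2 the median was 0.05. Spred2, which restrains the activation of Raf, was 8.81, 8.63 and 8.48 in the wild-type hearts and 8.93, 8.82 and 8.99 in the knockout hearts. It was the only gene of the 19 with an unadjusted p under 0.05 (limma, unadjusted p = 0.0363; adjusted p = 0.797). Of all clusters, 3.06% had such a p and a higher mean. Spred2 stood at 0.28 ± 0.11 (log2, SE), and at 0.27 without knockout replicate 1. Its relative Spred1 stood at 0.20 ± 0.10 and the Sprouty gene Spry4 at 0.18 ± 0.10. The phosphatase gene Dusp4 stood at 0.47 ± 0.30, with knockout replicate 1 at 8.51 and the other 5 hearts within 7.13 to 7.34, and at 0.07 without that heart. Dusp6, the phosphatase of ERK in the cytoplasm, differed by 0.004 ± 0.10, and was named after its value was seen.

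Of the genes that ERK activity switches on, 9 had their highest value in knockout replicate 1 and 6 in another heart. Of 15, 12 had a higher and 3 a lower mean, with a median of 0.10, and without that heart 8 and 7, with a median of 0.04. The median was 0.16 without knockout replicate 2 or 3. Egr1, an immediate early transcription factor, was 6.93, 6.83 and 7.25 in the wild-type hearts and 8.02, 7.28 and 7.16 in the knockout hearts. Its difference of 0.48 ± 0.23 (log2, SE) became 0.22 without knockout replicate 1, that of Fos 0.18 in place of 0.61 ± 0.33, and that of Ier3 0.28 in place of 0.98 ± 0.54. Egr3 stood at 0.15 ± 0.09 and at 0.13 without it.

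**Figure D4:**
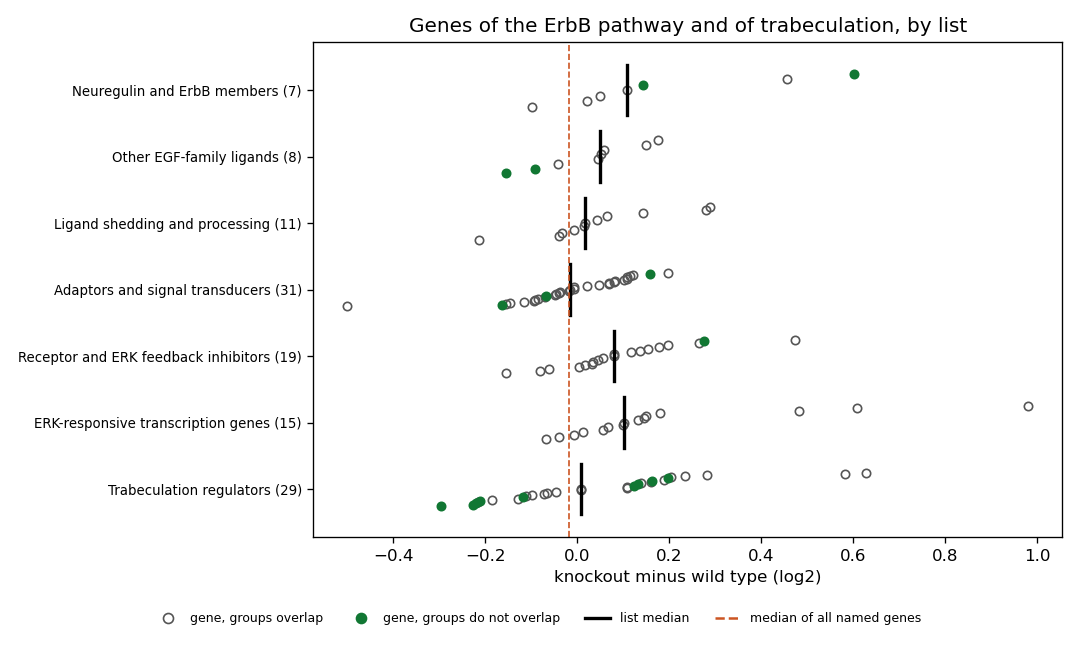
Knockout minus wild-type difference (log2) of each measured gene by list, with the number measured in parentheses; filled points are genes whose groups do not overlap, black bars list medians, and the dashed line the median of all named genes (-0.02). The medians of the 7 members (0.11), the feedback inhibitors (0.08) and the ERK-responsive genes (0.10) lie to the right of that line. Without knockout replicate 1 they are 0.07, 0.04 and 0.04. Those of the EGF-family ligands (0.05), shedding (0.02) and trabeculation (0.01) also lie to its right, and the adaptors (-0.02) lie on it.

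Trabeculation regulators, the genes that act beside neuregulin in building the ridges, divided in direction. Of 29, 16 had a higher and 13 a lower mean, with a median of 0.01 (-0.01 to 0.09 by the heart left out). The groups did not overlap for 9 genes, 4 higher and 5 lower, where 12.6% of all clusters had no overlap in either direction. The 3 genes with an unadjusted p under 0.05 were lower in every knockout heart, where 2.87% of all clusters had that p and a lower mean. Irx3, a transcription factor of the trabeculae and their conduction fibres, was 8.39, 8.44 and 8.22 in the wild-type hearts and 8.14, 8.01 and 8.02 in the knockout hearts, a difference of -0.30 ± 0.09 (log2, SE; limma, unadjusted p = 0.0140; adjusted p = 0.797). Angpt1, the angiopoietin by which the myocardium signals to the endocardium, stood at -0.22 ± 0.09 and Cited1, a marker of trabecular muscle, at -0.23 ± 0.09. Rbpj, the transcription factor of the Notch pathway that lies upstream of neuregulin, was higher in every knockout heart, by 0.20 ± 0.09.

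Other genes of this list were named after their values were seen. Notch1 and Efnb2, which act before Nrg1 in the endocardium, differed by 0.01 each, and without knockout replicate 1 by 0.02 and 0.06. Nppa, a marker of trabecular and atrial muscle, was 13.21, 13.31 and 13.07 in the wild-type hearts and 13.35, 13.41 and 13.32 in the knockout hearts, which were all higher. Bmp10, a growth factor of the trabeculae, stood at 0.28 ± 0.27 (log2, SE), with knockout replicate 1 at 10.83 and the other 5 hearts within 9.70 to 9.95, and at -0.07 without that heart. Has2, which makes the hyaluronan of the cardiac jelly that ErbB signalling in the cushions needs, was 6.93, 6.13 and 8.24 in the wild-type hearts and 7.06, 7.55 and 8.57 in the knockout hearts, and replicate 3 of each group was high for it as for Erbb3.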

How the data were processed

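RNA of 3 wild-type and 3 β1 integrin knockout hearts (Trizol extraction, biotin label, per the labels' protocols) was read on 1 array each. The deposited values are log2 signals per transcript cluster that the authors made with RMA (background correction, normalization across arrays and probe summary), per the submitters' processing notes; its version, the probe annotation, genome build and filters: not given in the sources used here. RMA compresses differences of dim clusters.

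The table held 28767 clusters. Platform annotation gave 1 symbol for 21776, several for 1618 and none for 5373; 21686 symbols were updated by Entrez identifier through a RefSeq gene table (GRCm38.p6). The brightest of several clusters stood for a gene. The 2 groups were compared with limma 3.58.1 in R 4.3.3 (lmFit, eBayes, two-sided, no covariate, filter or pseudocount), with Benjamini-Hochberg adjustment over all clusters, a threshold of 0.05 and 95% intervals before adjustment. On simulated data for this comparison (28767 clusters, changed ones at or above the median level), 40.3% of 1.5-fold, 80.6% of 2-fold and 97.0% of 3-fold changes were called, with 7 false calls. There 67, 67 and 66 clusters were changed. Noise was drawn independently for each cluster and without an outlying heart, so these shares need not hold for the real arrays.

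The members and lists were chosen with earlier results of these data known. Lists were written from textbook knowledge and are given by counts and medians, with no set test. Genes named were Itgb1, the 7 members, up to 4 genes of each pathway list by lowest p, the genes of most similar pattern, and genes from the first 3 of a marker list, and any other is said to be named after its value was seen. List genes without a single-symbol cluster were not analysed here. The alternatives were 3 normalizations, leaving out each heart, dim clusters removed, 1 cluster per gene, the mean of a gene's clusters, a replicate block, array weights and a trended robust variance.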

Additional observations from a re-analysis of the deposited data

How the results depend on the processing

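In the alternative fits, Nrg1, Hbegf, Erbb4, Egfr and Errfi1 kept their sign and none of the 7 genes passed an adjusted p of 0.05. The filter, the cluster choices, the block and the trended variance could not move a difference, as each gene had 1 cluster and the groups were balanced. With 1 heart left out, the difference of Erbb2 ranged from -0.038 to 0.12 and that of Erbb3 from -0.067 to 0.12, and the count of clusters passing from 0 to 1, the 1 without knockout replicate 1. Of the 7 genes, 0 had an unadjusted p under 0.05 with array weights and 0 to 2 with 1 heart left out, in place of 2. Clusters with an unadjusted p under 0.05 numbered 891 after the filter on dim clusters and 1067 with 1 cluster per gene (fewer were tested), 3650 with array weights and 1076 to 2714 with 1 heart left out, in place of 1705. The median of the adaptor list was 0.014 with cyclic loess and -0.031 to 0.008 with 1 heart left out, in place of -0.02, and that of the trabeculation list -0.012 to 0.085, in place of 0.01. The medians of the other pathway lists with a heart left out ran from 0.011 to 0.062 (EGF-family ligands), -0.025 to 0.061 (shedding), 0.043 to 0.10 (feedback inhibitors) and 0.039 to 0.16 (ERK-responsive genes). The causes were not tested. Same-numbered hearts deviated from their group means without a shared pattern over all clusters (r from -0.06 to -0.03), and no heart correlated best with its own number. With 3 hearts per group, r over all clusters cannot decide whether same-numbered hearts were paired. Erbb3 and the cushion markers were high in replicate 3 of each group. With the replicate block 1508 clusters had an unadjusted p under 0.05, the difference of each gene was the same, and the block changed no call at an adjusted p of 0.05. Scanner signals were not analysed here, so signal over background is not given.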
